A study of Mus musculus with 23 samples.

Results

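Sorted mouse oligodendrocytes were set against control cultures that had been left to differentiate without thyroid hormone, in 6 of the 23 RNA libraries of the series, 3 in each group. The members are all sorted oligodendrocyte libraries and all differentiation libraries that carried a non-targeting guide. The series measured poly(A) messenger RNA in oligodendrocyte lineage cells grown from mouse epiblast stem cells, sorted or carrying CRISPR guides. All cells descend from progenitors made from the lines EpiSC5 (strain 129SvEv) and 129O1 (strain 129S1/SvImJ), which had been purified for CD140a and NG2. The labels tie these lines to numbered progenitor replicates, but the line behind each library was not used here.

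The sorted oligodendrocytes were O1+ cells taken by magnetic sorting, and per the labels' protocols oligodendrocytes were made in a medium with 40 ng/mL of the thyroid hormone T3. Their time in that medium is not stated. The control cultures had received a lentiviral CRISPRv2 vector with a guide that targets no gene, printed here because, per the labels, both control groups received it:
non-targeting guide: aagcctacttcaccggtcgg
They were selected with 500 ng/mL puromycin for 96 h, spent 60 h in the same medium without T3, and were lysed whole, with no sort, so they can hold cells at several stages. As a check on differences between the experiments, magnetically sorted progenitors (3 libraries) were set against progenitors with the same non-targeting guide kept for 60 h in growth medium (3 libraries). These control progenitors had the same puromycin selection, so sorting, the vector, puromycin and the experiment differ in the check contrast too. Sorting, T3, the vector, puromycin and the experiment differ between sorted oligodendrocytes and control cultures. Time in medium, cell line and strain may also differ, so none of these can be told apart. Apart from the lines tied to progenitor replicates, nothing in the labels says that replicates were separate cultures. The p-values thus cover the spread between these libraries, which may be technical or may include differences between lines.

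Oligodendrocytes arise from progenitors that leave the cell cycle, silence progenitor factors and switch on the proteins and lipids of the myelin sheath. The cell passes through a newly formed stage, marked by the receptor Gpr17, before it makes compact myelin. T3 acts through nuclear receptors and is a classic timer of this step. O1 recognises galactolipid on the surface of oligodendrocytes past the progenitor stage.

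Levels are TPM (a length-scaled share of all transcripts in a library), and differences are log2(TPM + 1) in the sorted minus the control group, after each library was centred on its median gene. A gene was called at an adjusted p (limma, Benjamini-Hochberg) under 0.05 together with a change of at least 2-fold. Of 12833 genes tested, 1572 (12.2%) were called higher in sorted oligodendrocytes than in control cultures and 1316 (10.3%) lower. In sorted progenitors against control progenitors, 247 (1.92%) were called higher and 122 (0.951%) lower. The difference between both contrasts, here the double difference, was called higher for 1374 genes (10.7%) and lower for 1280 (9.97%). Of the calls in these tests 54.4%, 66.9% and 51.8% were higher, and without centring, which moved the oligodendrocyte contrast by 0.377 log2 units, 30.8%, 46.7% and 35.6%. The deposited symbols held 77.5 to 79.4% of the full TPM scale per library, and the control differentiation libraries rest on 13507407 to 16788455 estimated counts. The depth behind the sorted libraries is unknown.

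Of the 1572 genes higher in sorted oligodendrocytes, 100 (6.36%) were also higher in sorted progenitors over control progenitors, against 1.92% of all genes tested, and 3 were lower. Of the 1316 lower genes, 47 (3.57%) were also lower in sorted progenitors, against 0.951% of all genes tested, and 12 were higher. Seen from the other side, the shared genes were 40.5% of those higher and 38.5% of those lower in the progenitor contrast. Over all genes tested, 12.2% were higher and 10.3% lower in the oligodendrocyte contrast. Across all genes tested the oligodendrocyte contrast was the wider of the pair, with a standard deviation of 1.02 against 0.539 log2 units. The correlation between both contrasts was r = 0.279 (Pearson) and rho = 0.245 (Spearman) over genes, which are not independent and whose libraries were made in the same pair of experiments.

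**Figure D1:**
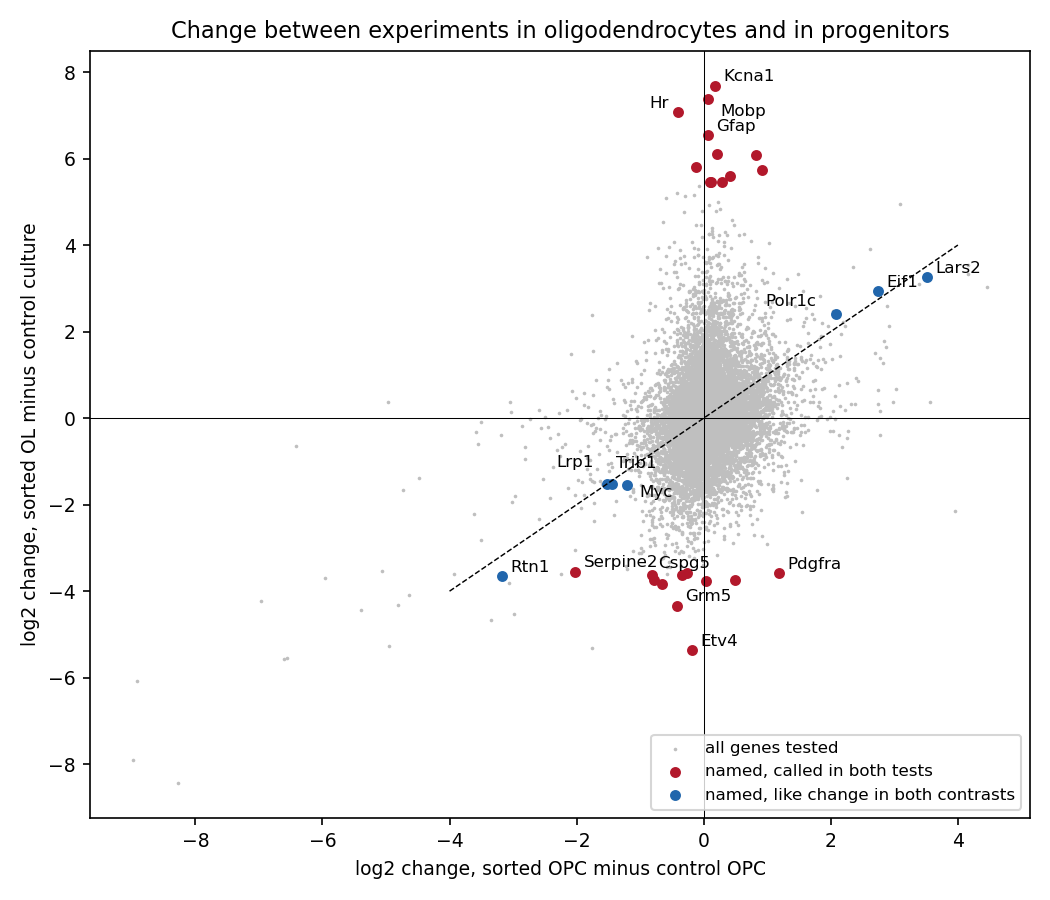
Each point is a gene: the log2 difference of sorted progenitors (OPC) minus control progenitors on the horizontal axis, and of sorted oligodendrocytes (OL) minus control cultures on the vertical axis, with the dashed line marking equal change. The red named genes lie far up or down the vertical axis (Kcna1 at 7.69, Etv4 at -5.37), while the blue named genes lie near the dashed line (Lars2 at 3.25 and 3.51).

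The 3 genes that mark these cells were all higher in sorted oligodendrocytes, but by very different amounts. Mobp, a basic protein of compact myelin, had 350.5, 248 and 279.8 TPM in sorted oligodendrocytes A, B and C, against 0.447, 1.43 and 2.34 TPM in control cultures. It was near 0 in both progenitor groups, at no more than 0.0879 TPM. The groups were far apart, and the log2 difference was 7.38 ± 0.26 (SE), with an adjusted p of 2.22e-09. Mag, the myelin-associated glycoprotein that faces the axon, had 1624, 1626 and 1456 TPM in sorted oligodendrocytes, against 95.6, 107 and 114 TPM in control cultures. Mag was thus already abundant in the control cultures, although it was listed at 0 in all 6 progenitor libraries. Its log2 difference was 4.26 ± 0.10 (SE), with an adjusted p of 1.97e-10. Gpr17, a receptor of the newly formed stage that holds back maturation, had 814, 865 and 864 TPM in sorted oligodendrocytes, against 382, 372 and 369 TPM in control cultures. Its log2 difference of 1.55 ± 0.27 (SE), with an adjusted p of 0.000561, was the smallest of the 3, and it overlaps Lims2 on the opposite strand, so that reads from this unstranded kit cannot be assigned between them with certainty. The double difference was 7.30 for Mobp, 4.13 for Mag and 1.42 for Gpr17, with adjusted p-values of 1.03e-07, 1.12e-08 and 0.0132. For Mobp and Mag, at or near 0 in all progenitors, it largely repeats the oligodendrocyte contrast. In these bulk libraries, more oligodendrocytes and more RNA per oligodendrocyte cannot be told apart.

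The RefSeq promoter windows of Mobp and Mag (300 bases around the annotated start, build GRCm38.p6) are shown because these genes were at or near 0 in progenitors and among the most increased myelin genes in sorted oligodendrocytes. Capitals mark the SOX core ACAAAG or its reverse complement CTTTGT.
Mobp promoter, chr9:120149492-120149791, forward strand: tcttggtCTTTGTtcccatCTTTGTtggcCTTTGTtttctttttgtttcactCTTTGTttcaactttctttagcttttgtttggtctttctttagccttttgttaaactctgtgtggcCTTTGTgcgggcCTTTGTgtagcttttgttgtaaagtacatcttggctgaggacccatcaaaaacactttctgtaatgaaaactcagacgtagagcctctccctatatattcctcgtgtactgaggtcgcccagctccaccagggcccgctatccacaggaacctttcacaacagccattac
Mag promoter, chr7:30914814-30915113, reverse strand: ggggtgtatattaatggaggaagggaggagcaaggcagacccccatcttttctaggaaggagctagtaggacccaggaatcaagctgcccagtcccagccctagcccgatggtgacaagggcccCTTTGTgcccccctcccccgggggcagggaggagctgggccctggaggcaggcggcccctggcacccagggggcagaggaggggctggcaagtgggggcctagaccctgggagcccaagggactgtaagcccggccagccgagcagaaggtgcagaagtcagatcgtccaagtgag
The Mag window is 1 of 3 in the table, of which a further, overlapping window also held 1 match and the remaining window held none. The Mobp window holds 6 matches and the Mag window 1, all in the CTTTGT orientation. Over all 32851 windows of the table, 18.7% held at least 1 match on either strand, and the Mobp window was the only 1 with as many as 6. Among the 14 named genes that rose and whose change differed from the progenitor contrast, 9 had a window in the table, and 5 of their 12 windows held ACAAAG. The nuclear receptor core AGGTCA lay in 4 of the 12 windows, against 16.3% of all windows, and a further SOX core, ACAATG, in 1 of the 12, against 12.6%. Some windows of the same gene overlap, and a match is a string of letters, not a bound site.

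Most tested genes of the myelin sheath rose. Of 25 genes on the myelin and mature oligodendrocyte list, 20 passed the filter on low values. In sorted oligodendrocytes 17 were called higher (against 12.2% of all genes tested) and none lower (10.3%). The median log2 difference was 2.93 against 0.06 over all genes tested. In sorted progenitors over control progenitors the same list had no call in either direction and a median of -0.06. By limma 6 genes had an unadjusted p under 0.05, of which 2 had an adjusted p under 0.05 at changes under 2-fold. Of its 25 genes, 18 averaged under 1 TPM in sorted progenitors and 16 in control progenitors. Genes that low in both groups can differ little there, so their missing calls tell little about the experiments. The summed list was 26831 to 27012 TPM in sorted oligodendrocytes, against 1379 to 1541 TPM in control cultures. Mbp, the basic protein that compacts the sheath, supplied more than any other member, with 16026, 16186 and 16652 TPM in sorted oligodendrocytes against 461, 531 and 539 TPM in control cultures. The log2 difference of Mbp was 5.37 ± 0.13 (SE), with an adjusted p of 2.54e-10. Cldn11, the claudin that seals myelin layers, had 499.6, 465 and 354 TPM against 7.65, 7.02 and 7.53 TPM in control cultures and rose by 6.08 log2 units (adjusted p = 1.4e-09). Tmem125, a membrane protein, had 37.1, 30.8 and 36 TPM in sorted oligodendrocytes and no more than 0.132 TPM in any control culture.

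Some late myelin genes stayed low. Mog, a protein of the outermost sheath, had 0, 1.05 and 1.76 TPM in sorted oligodendrocytes and was listed at 0 in all control cultures. Mal, a lipid raft protein of mature myelin, was listed at 0 in all 12 libraries, and Ermn, a cytoskeletal protein of late oligodendrocytes, had 1.97, 1.47 and 0.964 TPM against 0.077, 0.0209 and 0.146 TPM in control cultures. These genes and Klk6 and Ndrg1 did not pass the filter. Car2, a carbonic anhydrase, and Anln, a septin-binding protein, were not called, with log2 differences of -0.88 and -0.85. Without centring both were called lower, beside 16 members called higher, and with quantile normalization Car2 was called lower. Anln was also called lower by the double difference (-1.30 log2). In progenitors Anln had 38.4, 42.5 and 38.4 TPM when sorted and 32.5, 30.2 and 32.9 TPM as controls, against 6.87, 5.80 and 6.66 TPM in control cultures. Trf, the iron carrier transferrin, had 0, 0.156 and 4.9 TPM in sorted oligodendrocytes against 0.855, 1.21 and 0 TPM in control cultures, so its groups overlapped.

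Genes of the newly formed stage rose too. Of 18 genes, 16 passed the filter, 15 were called higher in sorted oligodendrocytes (against 12.2% of all genes tested) and none lower (10.3%), with a median of 2.40. In sorted progenitors none was called by limma, and the median was 0.06. There 3 had an unadjusted p under 0.05, and all 3 also had an adjusted p under 0.05, at changes under 2-fold. Of this list, 6 genes averaged under 1 TPM in sorted progenitors and 6 in control progenitors, with little room to differ. Tmem163, a zinc transporter, had 357, 329 and 342 TPM in sorted oligodendrocytes against 15.1, 13.2 and 15.5 TPM in control cultures (4.84 log2, adjusted p = 9.27e-10). Nfasc, the adhesion molecule of paranodal contacts, rose by 3.57 log2 units, Sirt2, a deacetylase abundant in myelin, by 3.08 and Bcas1, a marker of early myelinating cells, by 2.99 (adjusted p = 1.34e-06, 2.01e-10 and 4.73e-07). Lims2 was the member that was not called (1.41 log2, adjusted p = 0.202).

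**Figure D2:**
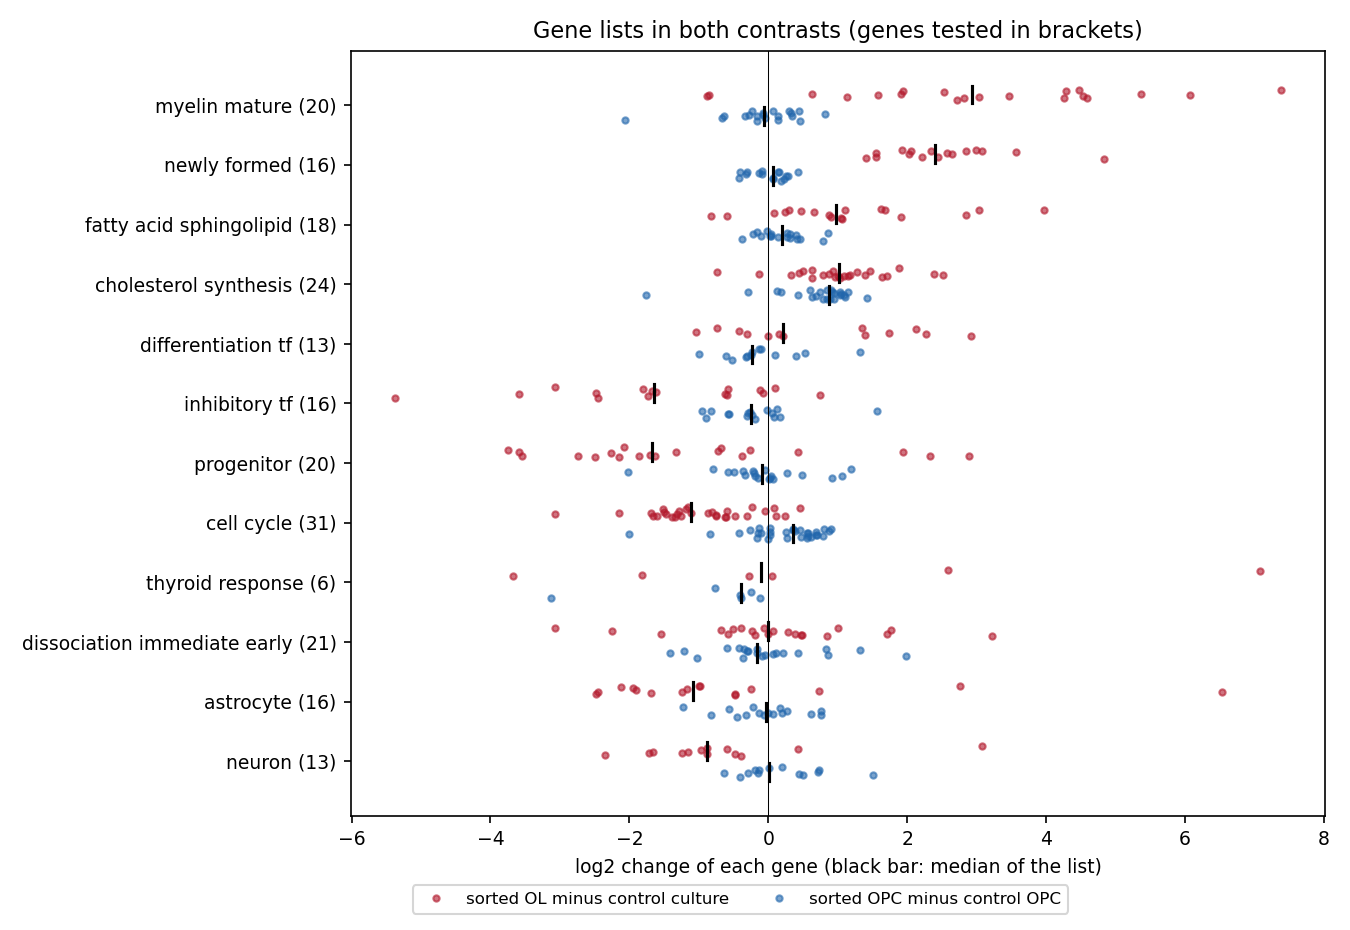
Points are genes of each list that passed the filter, placed by log2 difference, with sorted oligodendrocytes minus control cultures in red above sorted progenitors minus control progenitors in blue; black bars are list medians. The myelin list has medians of 2.93 and -0.06 in these contrasts, and the cholesterol list 1.01 and 0.87.

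The transcription factors that drive differentiation rose in part. Of 14 genes, 13 passed the filter, 6 were called higher in sorted oligodendrocytes (against 12.2% of all genes tested) and 1 lower (10.3%). Myrf, the factor that switches on myelin genes, had 93.6, 103 and 87.8 TPM in sorted oligodendrocytes against 16.3, 14 and 15.8 TPM in control cultures (2.93 log2, adjusted p = 1.88e-08), and was below 0.65 TPM in every progenitor library. Sox10, which acts with Myrf, had 456, 571 and 439 TPM against 129, 127 and 133 TPM in control cultures (2.28 log2), but it was also called higher in sorted progenitors over control progenitors (1.32 log2), and its double difference of 0.96 was under 2-fold. That value passed 2-fold and was called under 5 of the alternatives tried, at 1.05 to 1.10 log2. Zfp488, a corepressor of the lineage, rose by 2.13, Tcf7l2, a Wnt effector of newly formed cells, by 1.73 and Zeb2, a Smad-interacting factor, by 1.40 log2 units, each also called by the double difference. Nkx6-2, a homeobox factor of myelinating cells, rose by 1.35, with a double difference of 0.94 that was not called, though under 4 alternatives it was called, at 1.04 to 1.22. Its rise lost its call without centring. Olig1, a founding factor of the lineage, had 719, 661 and 765 TPM in sorted oligodendrocytes against 1816, 1909.7 and 1975 TPM in control cultures, a log2 difference of -1.03 whose double difference was -0.04. Without sorted library B it was -0.98 log2, just under 2-fold. The list's median was 0.21 after centring and -0.16 without it, so its direction depends on the centring.

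Many factors that keep cells immature fell. Of 16 such factors, all of which passed the filter, 9 were called lower in sorted oligodendrocytes (against 10.3% of all genes tested) and none higher (12.2%). The median was -1.64. Etv4, an Ets factor downstream of growth factor signals (chr11:101769742-101785371, reverse strand, GRCm38), had 3.23, 2.07 and 1.91 TPM in sorted oligodendrocytes against 164, 181 and 193 TPM in control cultures. Control cultures were near the level of sorted progenitors (148, 155 and 108 TPM) and control progenitors (149, 188 and 175 TPM), and every sorted oligodendrocyte library lay far below. The log2 difference was -5.37 ± 0.17 (SE), with an adjusted p of 1.24e-09. Sox3 fell by 3.07, Sox9, a glial SOX factor, by 2.45 and the Notch target Hes1 by 1.67 log2 units, and each was also lower by the double difference. Nrarp, a feedback inhibitor of Notch signalling, had 4.79, 4.88 and 11.7 TPM against 116, 121 and 123 TPM in control cultures (-3.62 log2).

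Sox6, a SOX factor of progenitors and the gene targeted elsewhere in the series, was not called. It had 89.6, 103 and 124 TPM in sorted oligodendrocytes against 132, 113 and 139 TPM in control cultures, with overlapping groups, a log2 difference of 0.09 ± 0.24 (SE) and an adjusted p of 0.767. Without centring the difference was -0.28 log2, also not called. Its close relative Sox5 had 2.22, 2.19 and 2.39 TPM against 12.4, 14.8 and 12.1 TPM in control cultures and fell by 1.73 log2 units, with a double difference of -0.83 that was not called. It was called without centring (-1.07) and with a pseudocount of 0.1 (-1.10).

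Most tested genes of the progenitor marker list fell. Of 21 genes, 20 passed the filter, 12 were called lower in sorted oligodendrocytes (against 10.3% of all genes tested) and 3 higher (12.2%), with a median of -1.67. Pdgfra, the receptor for the progenitor mitogen PDGFA, had 1.4, 0.148 and 1.17 TPM in sorted oligodendrocytes against 26.7, 24 and 32 TPM in control cultures (-3.59 log2, adjusted p = 1.07e-06). It ran opposite in the check contrast, with 8.91, 10.2 and 15.1 TPM in sorted progenitors against 3.79, 6.1 and 4.93 TPM in control progenitors (1.19 log2, called higher). Every control culture was above every progenitor library. Cspg5, a brain proteoglycan, had 25.8, 18.5 and 35.1 TPM against 459, 459 and 476 TPM in control cultures (-3.75 log2). Ptprz1, a receptor phosphatase, fell by 2.15, Pcdh15, a cadherin of progenitors, by 2.73 and Serpine2, a protease inhibitor, by 3.55 log2 units. Serpine2 was also called lower in sorted progenitors (-2.02 log2). Cspg4, which encodes NG2, had 13.7, 12.2 and 14.2 TPM against 29.1, 28.3 and 31.5 TPM in control cultures, a difference of -0.72 log2 after centring that was under 2-fold. Without centring 14 members rather than 12 were called lower, Cspg4 among them (-1.10 log2). The 3 members that rose were Tnr, a matrix tenascin also made by oligodendrocytes, Gria3, a glutamate receptor subunit, and Matn4, a matrilin, at 2.89, 1.94 and 2.33 log2. Matn4 was also called higher in sorted progenitors.

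**Figure D3:**
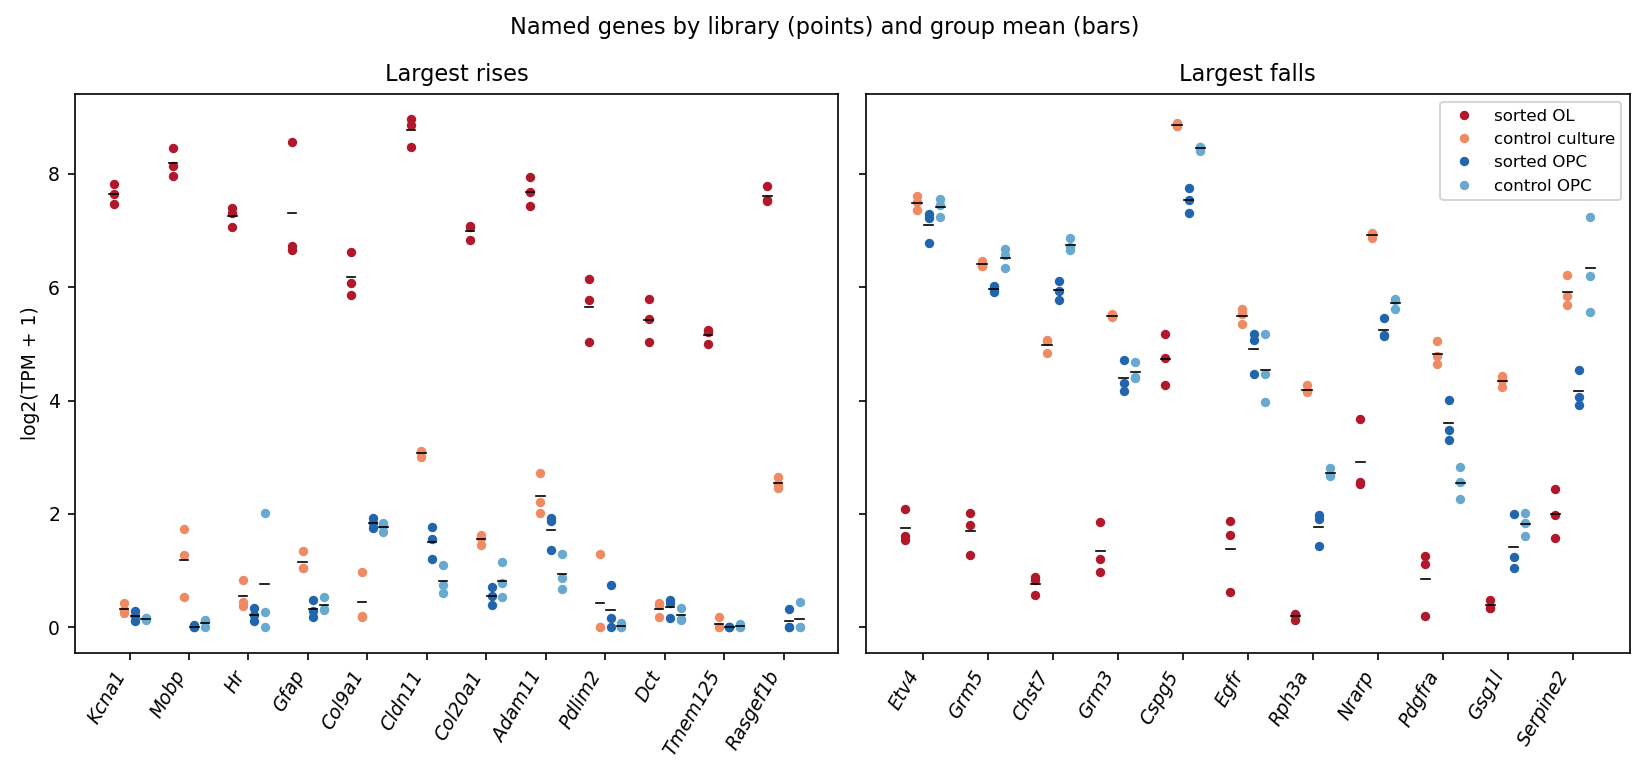
Level of the 12 genes with the largest rises (left) and of 11 of the 12 with the largest falls (right), chosen by the rule on level, separation and double difference, as log2(TPM + 1) before centring; points are libraries and bars group means. No sorted oligodendrocyte library overlaps a control culture, and for Etv4 and Grm5 the control cultures lie near both progenitor groups.

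The remaining genes with the largest rises were of varied kinds. Kcna1, a voltage-gated potassium channel, had 175, 199 and 224 TPM in sorted oligodendrocytes against 0.189, 0.243 and 0.348 TPM in control cultures (7.69 log2, adjusted p = 1.93e-11), and no more than 0.228 TPM in any progenitor library. Col9a1, a chain of collagen IX, had 56.8, 66.7 and 98 TPM against 0.963, 0.13 and 0.149 TPM in control cultures, below the progenitors, which had 2.38 to 2.81 TPM when sorted and 2.2 to 2.6 TPM as controls. Col20a1, a further collagen, rose by 5.81, Adam11, a catalytically inactive ADAM family member, by 5.74 and Pdlim2, a PDZ and LIM domain protein, by 5.60 log2 units. Dct, dopachrome tautomerase, known for melanin synthesis, had 54.6, 42.6 and 31.6 TPM in sorted oligodendrocytes against 0.314, 0.131 and 0.343 TPM in control cultures (5.47 log2). Rasgef1b, an exchange factor for Ras family GTPases, had 183, 219 and 185 TPM against 4.51, 4.79 and 5.25 TPM in control cultures (5.45 log2). Over these 12 genes the adjusted p ranged from 1.93e-11 to 3.11e-07, and none was called in the progenitor contrast, where their log2 differences lay between -0.40 and 0.91. Those near 0 TPM in all progenitors, such as Kcna1, had little room to differ there.

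Among the largest falls were genes of glutamate and growth factor signalling. Grm5, a metabotropic glutamate receptor, had 3.04, 2.49 and 1.41 TPM in sorted oligodendrocytes against 82.2, 81.5 and 87.6 TPM in control cultures (-4.33 log2). Grm3, a further receptor of that family, had 0.976, 1.31 and 2.64 TPM against 43.5, 44.1 and 45.1 TPM in control cultures (-3.77 log2). Egfr, the receptor for epidermal growth factor, had 2.68, 0.534 and 2.11 TPM against 39.8, 47.8 and 44.9 TPM in control cultures (-3.74 log2, adjusted p = 3.2e-06). Chst7, a sulfotransferase for chondroitin chains, fell by 3.85, Rph3a, a synaptic vesicle effector, by 3.62 and Gsg1l, an AMPA receptor auxiliary subunit, by 3.58 log2 units. Rph3a and Gsg1l were higher in control cultures than in every progenitor library, at 16.7 to 18.4 and 17.8 to 20.6 TPM, so sorted oligodendrocytes and progenitors were both below them. For the 11 falls shown the adjusted p was between 1.24e-09 and 6.29e-06.

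Control cultures also differed from progenitors for part of these genes. By the oligodendrocyte contrast and the double difference, tests that share the oligodendrocyte and control culture libraries, 1152 genes were higher and 939 lower. Of the 1152 higher genes, 247 had a control culture mean at least 2-fold above both progenitor groups and 20 at least 2-fold below both. Of the 939 lower genes, 199 had control cultures at least 2-fold above both progenitor groups and 99 at least 2-fold below both. These counts used mean TPM before centring, and the same counts over all genes tested were not made. The genes were chosen partly by their control culture values, so the counts are a description.

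Many cell cycle genes were lower in sorted oligodendrocytes. Of 32 genes, 31 passed the filter. In sorted oligodendrocytes 16 were called lower than in control cultures (against 10.3% of all genes tested) and none higher (12.2%), with a median of -1.12. None was called by limma in the progenitor contrast, where 14 had an unadjusted p under 0.05 and the median was 0.36. Of these 14, 7 also had an adjusted p under 0.05, at changes under 2-fold. The summed list was 193 to 263 TPM in sorted oligodendrocytes against 515 to 546 TPM in control cultures, and 2614 to 3090.0 TPM in sorted progenitors against 2512 to 2751 TPM in control progenitors. Top2a, the topoisomerase of dividing cells, had 12.6, 7.51 and 5.2 TPM in sorted oligodendrocytes against 52.6, 49.4 and 50.4 TPM in control cultures (-2.15 log2, adjusted p = 1.61e-05). Ccnd1, the cyclin that couples growth factors to the cycle, had 2.64, 1.92 and 2 TPM against 35, 33 and 33.1 TPM in control cultures (-3.07 log2). The replication helicase subunit Mcm5 fell by 1.60, the mitotic kinase Cdk1 by 1.34 and the proliferation marker Mki67 by 1.66 log2 units. Pcna, the replication clamp, was not called (0.11 log2, adjusted p = 0.523). By the double difference 19 of the 31 cell cycle genes were lower, against 13 of 20 progenitor genes and 9 of 16 factors of the immature state. Over all genes tested, 9.97% were lower by it.

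T3 was in the medium described for oligodendrocytes and left out of that of the control cultures. Genes listed as responding to T3 went both ways, and 2 known direct targets of its receptor were higher in the sorted cells. A part of T3 in these changes was not tested, and T3 cannot be told apart from the other differences between the experiments. Hr, the corepressor hairless (chr14:70552212-70573548, forward strand, GRCm38), had 133, 167 and 157 TPM in sorted oligodendrocytes against 0.361, 0.783 and 0.298 TPM in control cultures, with all control cultures under 0.8 TPM. The log2 difference was 7.08 ± 0.42 (SE), with an adjusted p of 1.05e-07, and progenitors had 0.0834, 0.166 and 0.263 TPM when sorted against 0.204, 3.02 and 0 TPM as controls. Klf9, a zinc finger factor, had 97.5, 102 and 96.6 TPM in sorted oligodendrocytes against 19.6, 20.6 and 21.5 TPM in control cultures, again without overlap (2.59 log2, adjusted p = 1.29e-09). In progenitors it was lower in sorted than in control libraries, with 10.3, 9.6 and 8.43 TPM against 17.9, 17.9 and 19.5 TPM (-0.76 log2, under 2-fold), so its double difference was 3.35. Of the 11 listed response genes, 6 passed the filter, with a median log2 difference of -0.11. Of these, 2 were called higher (against 12.2% of all genes tested) and 2 lower (10.3%). The lower pair was Me1, malic enzyme, a known target in liver, and Ppargc1a, a metabolic coactivator. Me1 had 0.322, 0 and 0 TPM against 21.8, 12.5 and 18.4 TPM in control cultures, and was also lower in sorted progenitors, at 0, 0 and 9.14 TPM against 13.7, 26 and 21.8 TPM. Of 12 hormone transport and receptor genes 8 passed the filter and none was called by limma in this comparison. The 5 with an unadjusted p under 0.05 also had an adjusted p under 0.05, but changes under 2-fold. Thra, a nuclear receptor for T3, had 71.2, 78.8 and 79 TPM in sorted oligodendrocytes against 65.1, 56.9 and 70.4 TPM in control cultures (0.63 log2).

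Fatty acid and sphingolipid genes were higher in part. Of 19 genes 18 passed the filter, 9 were called higher in sorted oligodendrocytes (against 12.2% of all genes tested) and none lower (10.3%). None was called by limma in the progenitor contrast, where 10 had an unadjusted p under 0.05 (median log2 differences of 0.98 and 0.20). Of these 10, 7 also had an adjusted p under 0.05, at changes under 2-fold. Elovl7, an elongase of long fatty acids, had 286, 315 and 283 TPM in sorted oligodendrocytes against 23.1, 22.9 and 23.9 TPM in control cultures (3.98 log2, adjusted p = 2.16e-10). Fa2h, which hydroxylates myelin fatty acids, rose by 3.04, Gal3st1, the sulfatide synthase, by 2.85 and Cers2, a ceramide synthase, by 1.67 log2 units. Without centring 6 of these genes were called higher and 1 lower.

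Some cholesterol genes were higher in sorted cells of both stages. Of 25 genes 24 passed the filter, and 12 were called higher in sorted oligodendrocytes over control cultures (against 12.2% of all genes tested). In sorted progenitors over control progenitors 7 were called higher (against 1.92%). None was lower in either, with medians of 1.01 and 0.87. The double difference of the list had a median of 0.04, with 4 genes called higher, Acat2, Hsd17b7 and Ebp among them, and 1 lower. Over all genes tested, 10.7% were higher and 9.97% lower by the double difference. Lss, lanosterol synthase, had 141, 177 and 186 TPM in sorted oligodendrocytes against 83.6, 84.4 and 98.2 TPM in control cultures (1.28 log2), and 85, 77.9 and 74.7 TPM in sorted progenitors against 36.9, 30.8 and 28.8 TPM in control progenitors (1.42 log2). Without centring, or with quantile normalization, 7 members rather than 12 were called higher in sorted oligodendrocytes, and Lss lost its call. Without centring 2 members rather than 7 were called higher in sorted progenitors, and Tm7sf2 was called lower in sorted oligodendrocytes.

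A small set of genes changed alike in oligodendrocytes and progenitors. Lars2, the mitochondrial leucyl-tRNA synthetase, had 914, 959 and 989.9 TPM in sorted oligodendrocytes against 113, 129.9 and 146 TPM in control cultures, and 1188, 1562 and 956 TPM in sorted progenitors against 129.8, 134 and 89.7 TPM in control progenitors. Sorted libraries were thus several-fold higher at both stages, with log2 differences of 3.25 and 3.51. Eif1, an initiation factor, differed by 2.94 and 2.74, and Polr1c, an RNA polymerase subunit, by 2.40 and 2.09 log2. On the lower side Rtn1, a neuronal reticulon, differed by -3.64 and -3.17, Myc, the growth regulator, by -1.54 and -1.21, Trib1, a pseudokinase, by -1.53 and -1.44, and Lrp1, a lipoprotein receptor relative, by -1.53 and -1.53. These 7 genes were picked for a double difference under 0.5 in size, so their likeness is a description. For Rtn1 it depends on the pseudocount, since with 0.1 the double difference was -2.89 and was called.

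Early response genes that tissue handling can induce were called in both directions. Of 24 genes 21 passed the filter, and 3 were called higher in sorted oligodendrocytes and 2 lower, near the shares of all genes tested (12.2% and 10.3%). In sorted progenitors 2 were higher and 2 lower, against 1.92% and 0.951% of all genes. Fos, an AP-1 subunit, had 26.2, 40.5 and 21.7 TPM in sorted oligodendrocytes against 3.41, 3.26 and 2.73 TPM in control cultures (3.22 log2), and 9.16, 11.3 and 10 TPM in sorted progenitors against 3.5, 4.16 and 4.11 TPM in control progenitors (1.32 log2, called). Egr1, a zinc finger early gene, differed by 1.71 and 1.99 log2 and was called in both. Btg2, an antiproliferative early gene, fell to 9.2, 7.08 and 8.32 TPM in sorted oligodendrocytes, against 99.9, 98.3 and 98.4 TPM in control cultures.

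Markers of other cell types differed between the groups too, and their part in the results above was not tested. Of 18 astrocyte markers 16 passed the filter, 8 were called lower in sorted oligodendrocytes (against 10.3% of all genes tested) and 2 higher (12.2%). The summed list was 2317 to 4682 TPM in sorted oligodendrocytes against 6738 to 7217 TPM in control cultures. It was 674 to 764 TPM in sorted progenitors and 887 to 1063 TPM in control progenitors. Apoe, a lipid carrier abundant in astrocytes, supplied much of the sum, with 683, 1143 and 2315 TPM against 3337, 3742 and 3623 TPM in control cultures. Slc1a3, a glutamate transporter, fell by 2.46 and Aldoc, an aldolase of astrocytes, by 1.69 log2 units. The 2 that rose were S100b, which oligodendrocytes also make, with 942, 1007 and 1017 TPM against 189.7, 184 and 191 TPM in control cultures, and Gfap, the astrocyte filament protein. Gfap had 99.3, 376 and 104 TPM in sorted oligodendrocytes against 1.53, 1.07 and 1.07 TPM in control cultures. Sorted library B was more than 3-fold above the other 2, and it also held the most Aqp4, the astrocyte water channel (2.35, 9.81 and 1.19 TPM). The Gfap difference was 6.54 ± 0.40 (SE), with an adjusted p of 1.55e-07, and 5.91 log2 without library B. For Apoe, leaving out sorted library A gave -0.79 log2 and ended the call.

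Of 18 neuron markers 13 passed the filter, 5 were called lower (against 10.3% of all genes tested) and 1 higher (12.2%). The sum was 440.2 to 498 TPM in sorted oligodendrocytes against 815 to 816 TPM in control cultures. The lower genes included Camk2a, a synaptic kinase (-2.35 log2), and Dcx, a protein of migrating neurons (-1.66 log2), and the higher gene was Elavl3, an RNA-binding protein (3.08 log2). Of 13 microglia markers, 12 averaged under 1 TPM in both groups, and the list summed to 8.43 to 11.8 TPM in sorted oligodendrocytes against 39.9 to 42.9 TPM in control cultures. Of 11 fibroblast and pericyte markers 3 passed the filter and none was called by limma or had an unadjusted p under 0.05, with sums of 3.16 to 7 TPM against 4.52 to 5 TPM in control cultures, and Pdgfrb was listed at 0 in all 12 libraries. Of 10 pluripotency genes 1 passed, and Pou5f1 was listed at 0 in all 12 libraries. Of 9 Schwann cell markers 4 passed the filter, 2 were called higher (against 12.2% of all genes tested) and 1 lower (10.3%).

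**Figure D4:**
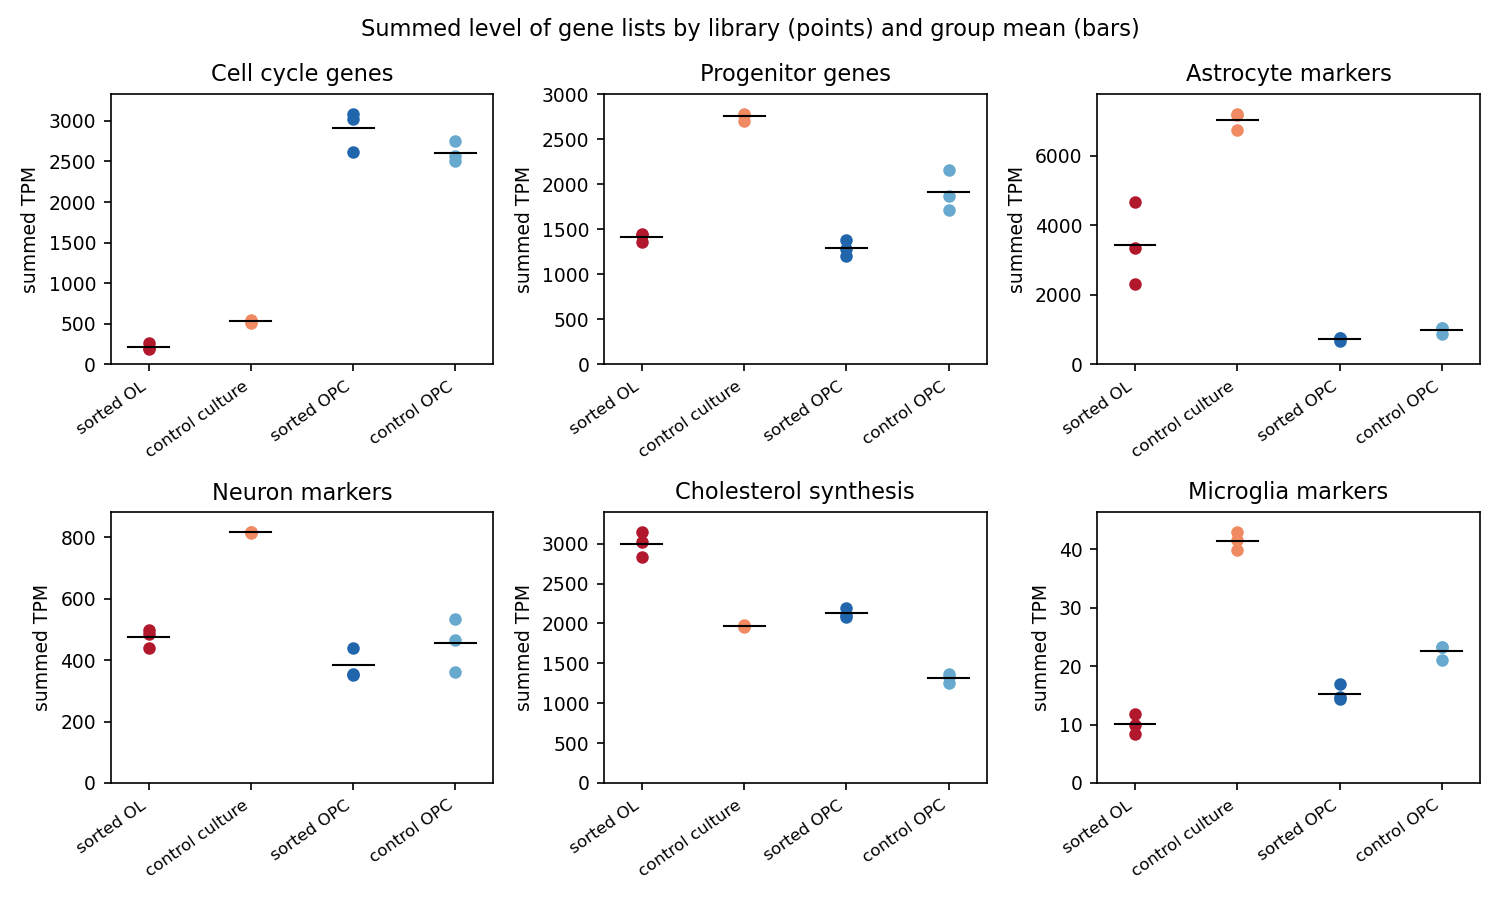
Summed TPM of 6 gene lists, with 1 point per library and a bar at the group mean, for sorted oligodendrocytes (sorted OL), control cultures, sorted progenitors (sorted OPC) and control progenitors. Cell cycle sums were 193 to 263 TPM in sorted oligodendrocytes and 515 to 546 TPM in control cultures, and astrocyte sums were 2317 to 4682 TPM in sorted oligodendrocytes and 6738 to 7217 TPM in control cultures.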

How the data were processed

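Poly(A) libraries were made with a kit that does not mark strand, per the labels' protocols. Salmon 0.14.1, DESeq2 (no version stated) and the build mm10 are named in the submitters' processing notes. The authors deposited TPM for sorted cells in 1 table, and TPM and estimated counts for guide-carrying cells in further tables; the estimated counts served here only as depth. TPM are scaled within each library, but the groups come from separate tables and experiments.

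For 35359 symbols shared by the tables, log2(TPM + 1) was centred on each library's median gene. Genes with at least 1 TPM in at least 3 of the 12 libraries entered limma 3.58.1 (R 4.3.3), with 1 coefficient per group in 1 fit of 4 groups, a mean-variance trend, two-sided tests and Benjamini-Hochberg adjustment over 12833 genes. The pseudocount understates changes of low genes. The procedure was tested on simulated data. The sorted table holds 26 names that are dates and match no gene. The labels do not say whether column letters pair samples, and no pairing was assumed. Deviations of same-letter libraries from different groups correlated at -0.0372 to 0.0963 over 18 pairs, and those of different letters at -0.0713 to 0.0740.

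Named genes were the 12 largest rises and 12 largest falls with a call in the same direction by the double difference, a mean of at least 10 TPM in the higher group and no overlap between groups, and the 4 largest each way that were also called in the progenitor contrast with a double difference under 0.5 in size. Predicted, mitochondrial and ribosomal protein genes were left out, and a few genes that met the rule or stand on the lists are not reported here. Members of the 21 gene lists (379 entries) could be named as examples, and Mobp, Mag and Gpr17 always were. The members, lists and rule were chosen with earlier results of these data known. Lists were described by counts and medians, with no set test. Gene positions are from GENCODE M21 (GRCm38), and promoter windows from RefSeq (GRCm38.p6). Alternatives covered centring, pseudocount, filter, variance trend, replicate block, libraries in the fit, the call rule and each library left out.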

Additional observations from a re-analysis of the deposited data

Results flagged for a closer look

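The oligodendrocyte contrast was tested against the progenitor contrast gene by gene, and the genes below differed between them, with adjusted p-values (limma, 12 libraries) up to 0.0295 among the 12 largest rises and 11 of the 12 largest falls. All values are double differences in log2 units. Among rises they were 7.50 for Kcna1, 7.48 for Hr, 7.30 for Mobp, 6.47 for Gfap, 5.94 for Col20a1, 5.91 for Col9a1, 5.35 for Tmem125, 5.35 for Rasgef1b, 5.25 for Cldn11, 5.18 for Pdlim2, 5.18 for Dct and 4.82 for Adam11. The myelin gene Mag was at 4.13 and Gpr17 at 1.42. Among falls they were -5.18 for Etv4, -4.78 for Pdgfra, -4.23 for Egfr, -3.91 for Grm5, -3.80 for Grm3, -3.32 for Gsg1l, -3.28 for Nrarp, -3.18 for Chst7, -2.96 for Cspg5, -2.81 for Rph3a and -1.53 for Serpine2. Pdgfra was called in opposite directions in the contrasts, and Serpine2 in the same direction in both, with the smallest double difference of the falls. A call by the double difference was a condition for naming these genes, apart from Mag and Gpr17. For genes at or near 0 TPM in all progenitors, such as Kcna1, Mobp and Mag, it largely repeats the oligodendrocyte contrast.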

How the results depend on the processing

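Without centring, 1010 genes were called higher and 2267 lower in sorted oligodendrocytes than in control cultures, and 2326 called genes were shared with the centred fit. In the progenitor contrast these counts were 164 and 187. With a pseudocount of 5 the oligodendrocyte counts were 1028 and 622, the progenitor counts 83 and 76, and 591 genes were lower by the double difference. With no filter on low values 142 genes were higher in the progenitor contrast. With an adjusted p under 0.05 and no fold condition the counts were 3807 higher and 3015 lower in the oligodendrocyte contrast, 1028 and 831 in the progenitor contrast, and 2774 and 2270 by the double difference. Leaving out 1 library at a time gave 1401 to 1571 higher and 1280 to 1359 lower in the oligodendrocyte contrast, 175 to 270 and 102 to 143 in the progenitor contrast, and 1192 to 1391 and 1229 to 1291 by the double difference. With a replicate block by column letter, although the labels do not say that letters pair samples, the counts were 1578 and 1317, 238 and 122, and 1369 and 1270. Dropping the fold condition adds calls by construction, and the cause of the other moves was not tested.

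Of 4353 values of single genes under the alternatives none reversed, 66 lost a call and 28 gained it. Besides calls named above, Ppargc1a, Ugt8a, Sesn1, Fbln2, Mx1 and Ifi27 lost theirs with a pseudocount of 5, and so did the double differences of Hes1 (-0.998) and Serpine2 (-0.88). Ifi27 also lost its call without sorted library A (-1.05 log2) or C (-0.87) and without control culture A (-1.01) or B (-0.87). Serpine2 lost its double-difference call without sorted oligodendrocyte library A (-1.35) or C (-1.49), control culture A (-1.38), sorted progenitor library B (-1.36), or control progenitor library A (-1.51) or B (-1.15). TPM carry no depth, so low sorted values have no counting interval.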

Other observations

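Genes of the p53 response changed in part. Of 19 genes 16 passed the filter, 4 were called higher in sorted oligodendrocytes (against 12.2% of all genes tested) and 1 lower (10.3%). None was called by limma in the progenitor contrast, where 4 had an unadjusted p under 0.05 and none an adjusted p under 0.05. Cdkn1a, the cell cycle inhibitor p21, had 172, 181 and 202 TPM in sorted oligodendrocytes against 42.6, 38.3 and 41.9 TPM in control cultures (2.53 log2, adjusted p = 8.71e-08). Both progenitor groups were between, with 119, 92 and 71.3 TPM when sorted against 103, 102 and 106 TPM as controls. Mdm2, the ligase that limits p53, rose by 2.18, Phlda3, an Akt inhibitor, by 1.83 and Bbc3, a proapoptotic protein, by 1.66 log2 units, while Sesn1, a stress-induced sestrin, fell by 1.10.

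Of 22 matrix genes 19 passed the filter, and 4 were called higher (against 12.2% of all genes tested) and 4 lower (10.3%), or 4 and 6 without centring and 4 and 5 with quantile normalization. The collagen IX chain Col9a3 had 376, 456 and 399 TPM in sorted oligodendrocytes against 50.5, 53.4 and 61 TPM in control cultures (3.25 log2), as Col9a1 rose. Ncan, the proteoglycan neurocan, had 30.7, 35.1 and 41.7 TPM against 295, 317 and 315 TPM in control cultures (-2.71 log2), and the basement membrane collagen Col4a1 fell by 1.94 and the matrix glycoprotein Fbln2 by 1.95 log2 units. Of 21 interferon response genes 10 passed the filter, with 2 higher and 2 lower, against the same shares of all genes. The antiviral GTPase Mx2 had 15.6, 16.6 and 17.4 TPM in sorted oligodendrocytes against 3.33, 4.48 and 5.06 TPM in control cultures, and its relative Mx1 rose by 1.73 log2, while B2m, the light chain of MHC class I, had 42.4, 54.5 and 52.2 TPM against 152, 145 and 138 TPM in control cultures and Ifi27 fell by 1.04 log2 units. Of 21 genes of the unfolded protein and integrated stress responses 20 passed and none was called in sorted oligodendrocytes over control cultures by limma. An unadjusted p under 0.05 was found for 6, of which 5 had an adjusted p under 0.05 at changes under 2-fold.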
